A study of Mus musculus with 6 samples.

Results

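The 31 genes described here mark, or act in, blood stem and progenitor cells: surface proteins used to sort these cells, the HOX genes with their cofactor Meis1, regulators of stem cell maintenance, and transcription factors that the earliest blood cells share with several of their descendants. They were taken as a list of symbols for their known roles, with earlier results of these data known. For each gene the probe set with the highest mean over the 6 arrays was used, among those that the array annotation pairs with exactly 1 gene symbol, and 30 of the 31 had such a probe set. Ly6a, which encodes the sorting marker Sca-1, had none and is not analysed here. The 30 genes stood among 18193 genes measured in this way, and 18 of them had further probe sets, 36 in all, so that 66 probe sets of member genes were examined.

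Whole bone marrow came from SCID/Bg mice, an immunodeficient strain that carries the scid and beige mutations and lacks most mature B and T cells; both groups share this background. The untreated group had 3 mice and the NOX-A12 group had 3 mice, with 1 array for each mouse. NOX-A12 is an oligonucleotide built of mirror-image RNA that binds and neutralises the chemokine CXCL12. Dose, schedule and the age of the mice are not stated in the labels.

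CXCL12 from stromal cells of the marrow holds stem and progenitor cells in their niche through the receptor CXCR4, and agents that block this axis release such cells into the blood. Stem cells are rare in marrow and give rise to progenitors that divide and take on the erythroid, megakaryocytic, myeloid or lymphoid programme. Their identity rests on transcription factors that often work together on DNA: TAL1 and LYL1 bind as partners of E proteins, LMO2 bridges them to GATA factors, and HOX proteins bind with MEIS and PBX cofactors. The comparison asks whether transcripts of such genes differed in whole marrow between treated and untreated mice.

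As a group they were centred on no change. Of the 30 measured genes, 14 were higher and 16 lower in NOX-A12 mice, with a median log2 change of 0.00 against -0.01 over all 18193 genes. A positive change means more signal in NOX-A12 mice. Changes were taken on log2(intensity + 16), which shrinks them where the signal is dim, and each is given with its standard error (SE). The changes of the members ran from -0.40 for Gfi1b to 0.58 for Spink2, and 26 of the 30 were smaller than 0.2 in either direction. None of the members passed the limma test with Benjamini-Hochberg adjustment over all 45037 probe sets at 0.05, where 0 probe sets (0%) passed and 2240 had an unadjusted p under 0.05. At that unadjusted limit 1 member was higher, Spink2, where 1.78% of all genes were higher, and 1 was lower, Gfi1b, where 3.53% of all genes were lower. Spink2 and Gfi1b were also the 2 members whose groups did not overlap, against 3.92% of all genes with higher and 6.68% with lower values in every treated mouse. A count of 1 in 30 in each direction is near these background shares. In whole marrow, fewer cells of a type and less RNA per cell cannot be told apart.

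**Figure D1:**
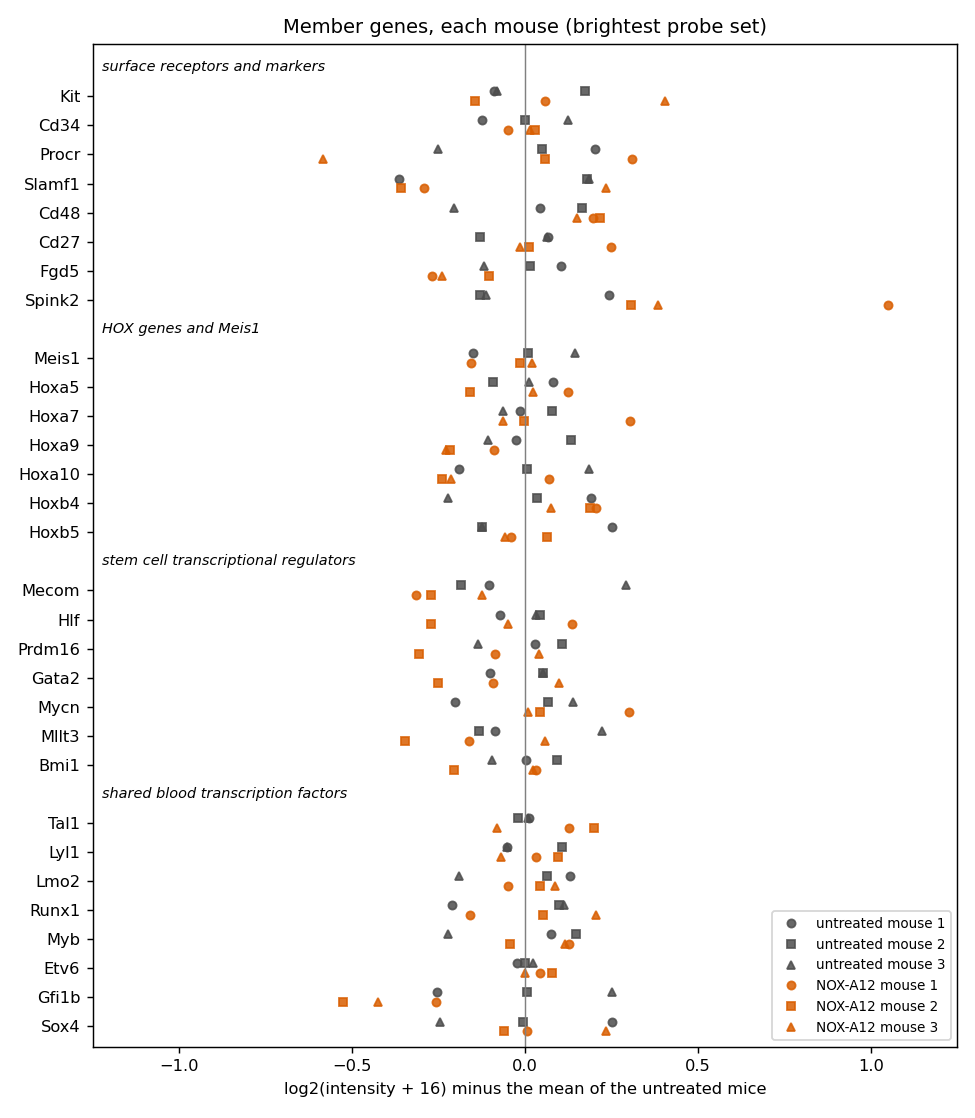
Each point is 1 mouse at the brightest probe set of a gene, as log2(intensity + 16) minus the mean of the untreated mice; untreated mice are grey and NOX-A12 mice orange, with 1 shape for each mouse number. The orange points lie on both sides of 0 for most genes, and only Spink2 (all higher) and Gfi1b (all lower) separate the groups.

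For genes with bright signal, the precision of the arrays bounds how large a difference could have been missed. For 29 of the 30 genes the 95% interval of the change lay within 2-fold in either direction, as it did for 98.9% of all genes, and the exception was Spink2. For 26 of the 30 it lay within 1.5-fold, against 85.4% of all genes, the exceptions being Procr, Slamf1, Spink2 and Gfi1b. These intervals are for single genes, without adjustment for their number. For 23 members the probe set was brighter on average than the median probe set, which had an intensity of 44.8 to 45.6 on the 6 arrays. Of these 23 members, 20 had an interval within 1.5-fold. Procr, Fgd5, Hoxa5, Hoxa7, Hoxa10, Hoxb5 and Prdm16 were dimmer than that median. At dim probe sets the constant added to each intensity shrinks the change and its interval. Intervals there bound the change in intensity less closely than the fold limits state. For Hoxa7 and Hoxb5, the dimmest, they set no useful bound. With 1 as the added constant, their changes went from 0.08 to 0.32 and from -0.01 to 0.14.

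**Figure D2:**
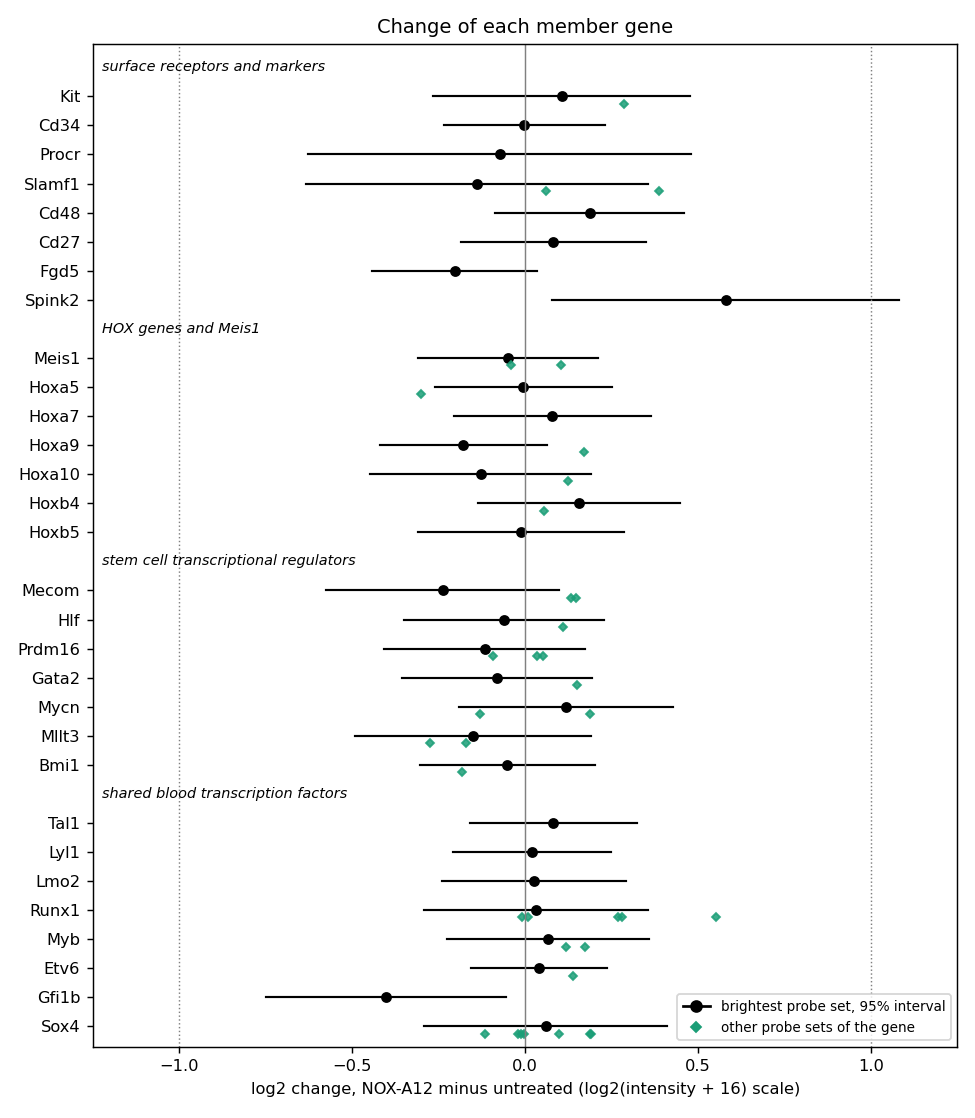
Black points are the log2 change of the brightest probe set of each gene with its 95% interval, green diamonds the changes of its other probe sets, and dotted lines mark a 2-fold change. All intervals except those of Spink2 and Gfi1b include 0, and the interval of Spink2 alone crosses a dotted line, at 1.08.

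Among the surface proteins, Kit encodes the receptor of stem cell factor and is carried by stem cells, progenitors and mast cells. Its intensity was 333, 403 and 335 in the untreated mice and 370.5, 320.3 and 476 in the NOX-A12 mice. The highest and the lowest value both belonged to treated mice, and the change was 0.11 ± 0.16. Cd34, a sialomucin of progenitors and endothelium, gave 162, 178 and 195 in untreated and 172, 182 and 179.9 in treated mice. The treated values lay inside the untreated range, with a change of -0.00 ± 0.10 and a 95% interval from -0.23 to 0.23.

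Slamf1 encodes CD150, which with CD48 separates stem cells from multipotent progenitors. Its intensity was 281, 417 and 419 in untreated and 296, 282 and 434 in treated mice. Low and high values occurred in both groups, and the change was -0.14 ± 0.21. Procr, the endothelial protein C receptor, which marks stem cells and vessels, was dim, at 32.1, 27.3 and 19.1 in untreated and 35.8, 27.5 and 11.9 in treated mice. The groups overlapped fully, and the change of -0.07 ± 0.24 became 0.18 without NOX-A12 mouse 3 and -0.26 without NOX-A12 mouse 1.

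Cd48, a lymphoid and myeloid surface protein absent from the most primitive stem cells, gave 928, 1012 and 778 in untreated and 1034, 1049 and 1001 in treated mice. Only untreated mouse 2 lay among the treated values, and the change was 0.19 ± 0.12, or 0.08 without untreated mouse 3. Cd27, a receptor of the tumour necrosis factor family on progenitors and lymphocytes, gave 0.08 ± 0.11. Fgd5, a guanine nucleotide exchange factor expressed in stem cells and endothelium, gave 33.1, 30.2 and 26.1 in untreated and 21.9, 26.6 and 22.8 in treated mice. NOX-A12 mouse 2 overlapped untreated mouse 3, and the change was -0.20 ± 0.10 at an unadjusted limma p of 0.0841, or -0.26 at 0.0368 without untreated mouse 3.

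Spink2, which encodes a serine protease inhibitor found in progenitors, was the member with the largest difference. Its intensity was 95.8, 70.3 and 71.2 in untreated and 179, 101 and 107 in NOX-A12 mice. All 3 treated mice were above all 3 untreated mice, although untreated mouse 1 and NOX-A12 mouse 2 lay close together and NOX-A12 mouse 1 stood far above the rest. Group means were 79.1 ± 14.5 (SD, n = 3) and 129 ± 43.6 (SD, n = 3). The change was 0.58 ± 0.21 (95% interval 0.08 to 1.08), with an unadjusted limma p of 0.0290 and a limma adjusted p of 0.967. It was 0.35 without NOX-A12 mouse 1, at an unadjusted limma p of 0.0606, and the unadjusted limma p was also above 0.05 without untreated mouse 2 (0.0913) or 3 (0.0813). No other probe set was paired with this gene alone.

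Markers of granulocyte precursors were read beside Spink2, since such precursors are abundant in marrow. Of 9 measured neutrophil and precursor genes, 7 were higher, with a median of 0.11, and none had an unadjusted limma p under 0.05. The summed intensity of this list ranged from 53116 to 60239 in untreated and from 57648 to 59699 in treated mice, so that the groups overlapped, and no marker of it was near the floor (an intensity of 10 or less on every array). Hdc, the histidine decarboxylase gene from the mast cell and basophil list, was higher in every treated mouse, with a change of 0.37 ± 0.11. Of the 7 measured genes of that list, 2 were higher and 5 lower, and its summed intensity was 3516 to 3802 in untreated and 3443 to 4144 in treated mice, with Tpsb2 near the floor. Their part in the result was not tested.

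HOX genes encode the homeodomain proteins that set the self-renewal of stem cells, and their transcripts fall as blood cells mature. Of the 6 HOX genes and Meis1, 2 were higher and 5 lower, with a median of -0.01. Hoxa9, the HOX gene most tied to progenitor growth and leukaemia, gave 181, 205 and 171 in untreated and 173, 157 and 156 in treated mice. The treated mice were low, but NOX-A12 mouse 1 overlapped untreated mouse 3, and the change was -0.18 ± 0.10. A dimmer probe set of Hoxa9 gave the opposite sign, at 0.17 ± 0.12, with 52.9, 46.7 and 57.6 in untreated against 71.8, 56.1 and 55.6 in treated mice.

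Meis1, whose product binds DNA together with HOX proteins, gave 123, 139 and 154 in untreated and 122, 137 and 140.3 in treated mice. The groups overlapped, and the change was -0.05 ± 0.11, with 0.10 ± 0.11 at its next probe set. Hoxb4, which expands stem cells when overexpressed, gave 0.16 ± 0.12, or 0.04 without untreated mouse 3, and Hoxa10, a regulator of myeloid and stem cell growth, gave -0.13 ± 0.14. Hoxa7 and Hoxb5 had values between 1 and 5.92 and between 1 and 6.05, close to the lowest on these arrays, and their changes were 0.08 and -0.01. Hoxa5 depended on the probe set. The brighter gave 44.2, 37.4 and 41.5 in untreated and 46.0, 35.0 and 41.8 in treated mice, a change of -0.00 ± 0.11, and its identifier marks it as able to cross-hybridise. The other gave 41.1, 48.8 and 44.1 in untreated and 34.2, 27.8 and 37.9 in treated mice, with every treated mouse lower. Its change was -0.30 ± 0.11 at an unadjusted limma p of 0.0296.

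Regulators of stem cell maintenance were lower in 6 of 7 cases, where 9608 of all 18193 genes were lower. The 95% interval of each of the 7 included 0. At the second brightest probe set Mecom, Hlf, Prdm16 and Gata2 were higher instead, while Mllt3 and Bmi1 stayed lower. Gata2, a transcription factor of stem cells and mast cells, gave 705, 786 and 785 in untreated and 709.8, 634 and 812 in treated mice. The treated mice held the lowest and the highest value, for a change of -0.08 ± 0.12, while the other probe set of Gata2 gave 0.15 ± 0.11. Mecom, a zinc finger gene needed to keep stem cells quiescent, gave 83.8, 78.4 and 115 in untreated and 70.2, 73.0 and 82.5 in treated mice. Only NOX-A12 mouse 3 lay within the untreated range, and the change was -0.24 ± 0.14, or -0.09 without untreated mouse 3, which had the highest value. Its dimmer probe sets gave 0.13 ± 0.16 and 0.15 ± 0.16.

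Mllt3, whose product belongs to the elongation machinery and sustains human stem cells in culture, had 3 probe sets, all lower. The brightest gave 516, 498 and 642 in untreated and 488, 428 and 572 in treated mice, a change of -0.15 ± 0.15 with overlapping groups. The third gave 132, 153 and 149.9 in untreated and 115, 114 and 122 in treated mice, with no overlap. Its change was -0.28 ± 0.09 at an unadjusted limma p of 0.0215, and that of the middle probe set was -0.17 ± 0.11. Bmi1, the Polycomb gene required for self-renewal, gave -0.05 ± 0.11 and, at its other probe set, -0.18 ± 0.13. Hlf, a leucine zipper factor restricted to primitive cells, gave -0.06 ± 0.12, Prdm16, which is related to Mecom, gave -0.12 ± 0.12, and Mycn, the neural relative of Myc that also acts in stem cells, gave 0.12 ± 0.13.

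Transcription factors shared with maturing blood cells had small changes, with 7 of 8 higher and a median of 0.04. Tal1, the helix-loop-helix factor required to form blood, gave 3370.1, 3299 and 3363 in untreated and 3651, 3840.2 and 3160.4 in treated mice. The treated mice lay on both sides of the tight untreated values, for a change of 0.08 ± 0.10. Lmo2, its bridging partner, gave 0.03 ± 0.11, and Lyl1, its close relative, 0.02 ± 0.10. Myb, which drives progenitor proliferation, gave 3147, 3310.3 and 2557 in untreated and 3259, 2897 and 3234 in treated mice. Untreated mouse 3 was the lowest, and the change of 0.07 ± 0.12 became -0.05 without it. Runx1, needed for the first blood stem cells to form, gave 0.03 ± 0.14. Its next probe set gave 0.27 ± 0.12 at an unadjusted limma p of 0.0632, with overlapping groups, and its dimmest gave -0.01 ± 0.15. Etv6, an ETS-family repressor that maintains adult stem cells, gave 0.04 ± 0.08, and Sox4, a factor of progenitors and early B cells, 0.06 ± 0.15.

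Gfi1b, a zinc finger repressor of stem cells, erythroid cells and megakaryocytes, was the exception in this group. Its intensity was 799.1, 960.5 and 1143 in untreated and 798.7, 659.9 and 709 in NOX-A12 mice. Every treated mouse was below every untreated mouse, but untreated mouse 1 and NOX-A12 mouse 1 were almost equal. Group means were 967 ± 172 (SD, n = 3) and 722 ± 70.4 (SD, n = 3). The change was -0.40 ± 0.15 (95% interval -0.75 to -0.06), with an unadjusted limma p of 0.0288 and a limma adjusted p of 0.967. The unadjusted limma p was above 0.05 without untreated mouse 2 (0.0679) or 3 (0.0763), without NOX-A12 mouse 2 (0.0950) or 3 (0.0728), and with an offset of 1 in place of 16 (0.0532). Without untreated mouse 3 the change was -0.28. As for Spink2, no other probe set was paired with Gfi1b alone.

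Megakaryocyte and erythroid markers were set beside Gfi1b, which both lineages express. Among the 9 measured megakaryocyte genes 7 were lower (median -0.11), and their summed intensity was 13262 to 17091 in untreated and 14116 to 16390.0 in treated mice. Untreated mouse 1 had the lowest untreated Gfi1b value and the lowest sum. All treated mice had a higher sum than this mouse and a lower Gfi1b value, although that of NOX-A12 mouse 1 was almost equal. Pf4 (0.01 ± 0.10) and Ppbp (0.05 ± 0.13), the 2 higher genes, were the brightest of the list. The sum therefore follows them more than the 7 lower genes. Of 9 measured erythroid genes 7 were higher, with a median of 0.04, and their sum was 37908 to 44912 in untreated and 40261 to 42838 in treated mice. No gene of either list had an unadjusted limma p under 0.05, neither sum separated the groups, and no marker was near the floor. Their part in the result was not tested.

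GATA factors such as the product of Gata2 bind the letters AGATAA or TGATAA. Gfi1b, the member with the largest lower value, carries TGATAA in its promoter. RefSeq promoter windows of 300 bases on GRCm38.p6, from 250 before to 50 after a transcription start, were held for 28 members, all but Ly6a, Hoxb5 and Lmo2. Either motif was found, on either strand, in a window of 4 of these 28 genes (14.3%), against 21.0% of the 27025 genes with a window. The 4 genes were Gfi1b, Slamf1, Mecom and Tal1, and their changes at the brightest probe set were -0.40, -0.14, -0.24 and 0.08. The other probe sets of Slamf1 (0.39 and 0.06) and Mecom (0.13 and 0.15) were higher instead. The whole Gfi1b window, at chr2:28621933-28622232 on the minus strand, is shown with the motif in capitals, because this gene had the largest lower value. For the other genes 60 bases around the match are shown, so that the flanks can be compared: Slamf1 at chr1:171766975-171767034 on the plus strand, Mecom at chr3:30509758-30509817 on the minus strand, and Tal1 at chr4:115056194-115056253 on the plus strand, where the motif lies on the opposite strand and reads as its reverse complement. A match is a stretch of letters, and binding was not measured here.
Gfi1b: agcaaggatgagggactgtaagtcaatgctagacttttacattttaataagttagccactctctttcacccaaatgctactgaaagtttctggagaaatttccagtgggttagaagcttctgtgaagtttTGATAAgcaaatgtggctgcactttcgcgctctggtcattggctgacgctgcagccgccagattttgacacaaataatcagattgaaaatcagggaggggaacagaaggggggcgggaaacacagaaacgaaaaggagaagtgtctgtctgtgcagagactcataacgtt
Slamf1: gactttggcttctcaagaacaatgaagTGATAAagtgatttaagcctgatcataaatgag
Mecom: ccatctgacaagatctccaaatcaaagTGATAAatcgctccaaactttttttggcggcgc
Tal1: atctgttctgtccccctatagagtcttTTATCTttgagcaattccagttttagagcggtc

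Several probe sets of a gene often disagreed in sign. Of the 36 further probe sets, 19 had the sign of the brightest and 17 the opposite, and in 7 of the 18 genes with several probe sets all had the same sign. Over all 66 member probe sets, 4 had an unadjusted limma p under 0.05, those of Spink2 (higher) and of Gfi1b, Hoxa5 and Mllt3 (lower), against 5.02% of the 34945 probe sets with 1 gene symbol. Opposite signs at probe sets that both lay above the median intensity occurred in Slamf1, Meis1, Hoxa9, Hlf, Gata2 and Sox4. Hlf gave 0.11 ± 0.11 at its other probe set. Sox4, with 0.06 ± 0.15 at its brightest probe set, gave -0.01 ± 0.11 and -0.12 ± 0.11 at such probe sets.

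The array of untreated mouse 3 stood apart from the others, also at some member probe sets. It correlated with the others at r from 0.982 to 0.985 over probe sets, which are not independent, against 0.991 to 0.994 among the other arrays, and at 851 probe sets it deviated by more than 2-fold from the middle of the rest, against 44 to 67 for each other array. It was the lowest array at 21 of the 66 member probe sets, against 4 to 16 for each other array. At the brightest probe set of each member it was lowest for 6, and NOX-A12 mouse 2 for 9. At 3 of the 66 probe sets untreated mouse 3 was over 2-fold below the median of the other arrays on the same log2 scale, which happened for no other mouse. These were a probe set of Runx1, at 19.7 against 98.1 to 139 on the other arrays, one of Slamf1, at 23.1 against 61.5 to 99.9, and one of Kit, at 2.02 against 18.4 to 29.3. The Runx1 probe set gave a change of 0.55 ± 0.50 and that of Slamf1 0.39 ± 0.38, with this mouse as the lowest value of each. At the brightest probe sets of Runx1 (164), Slamf1 (419) and Kit (335) the same mouse lay within the range of the others. The cause of the difference between these arrays was not tested.

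**Figure D3:**
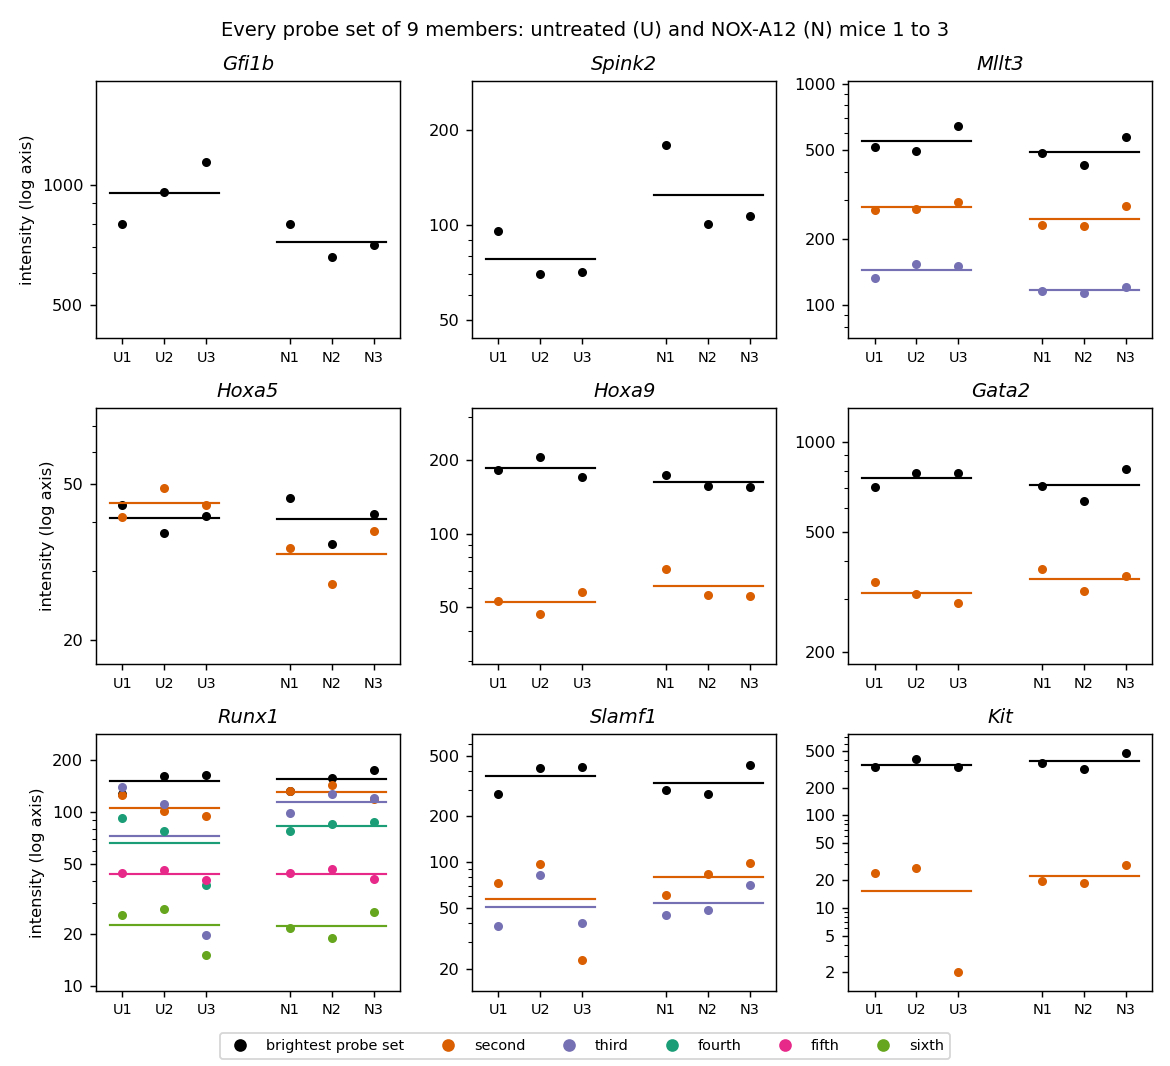
Intensity (log axis) of every probe set of 9 members in untreated (U1 to U3) and NOX-A12 (N1 to N3) mice, with colours for probe sets in order of mean brightness and lines at group means of log2(intensity + 16). All 3 probe sets of Mllt3 are lower in treated mice, those of Hoxa9 and Gata2 go opposite ways, and U3 is far below the other mice at the third probe set of Runx1 and the second of Slamf1 and Kit.

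Genes that work with the members were read from lists of related genes. Among partners of the TAL1 complex and other blood transcription factors, 9 of 15 were higher and 6 lower, with a median of 0.02 and changes between -0.14 and 0.14, and 0 had an unadjusted limma p under 0.05. Cebpa, the regulator of granulocyte commitment, gave 0.14 ± 0.10, and Tcf3, which encodes the E proteins that pair with TAL1, gave -0.14 ± 0.10. Of 14 measured HOX cofactors, neighbouring HOX genes and partners of the methyltransferase MLL1, 10 were higher and 4 lower, with a median of 0.11. Pbx2, a HOX cofactor gene, gave 0.20 ± 0.11. Hoxb2 was dim, at 18.7, 20.2 and 29.5 in untreated and 14.3, 13.0 and 14.8 in treated mice, lower in every treated mouse by -0.36 ± 0.12. Of 11 Polycomb repressive complex 1 genes, which encode the partners of BMI1, 4 were higher and 7 lower, with a median of -0.03, and Ring1 (-0.29 ± 0.17) and Cbx7 (-0.14 ± 0.11) had the smallest p.

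Further surface and signalling genes of stem and progenitor cells were mostly lower, 14 of 17, with a median of -0.14. Thy1, a surface protein of stem cells, T cells and stroma, gave 51.7, 58.1 and 75.4 in untreated and 50.4, 45.8 and 39.5 in treated mice. All treated values were below the untreated ones, with a change of -0.34 ± 0.14 at an unadjusted limma p of 0.0424, the smallest of this list. Kitl, which encodes the ligand of KIT and is made by stroma and endothelium, gave -0.41 ± 0.19, and Esam, an adhesion molecule of vessels and stem cells, -0.32 ± 0.15. Flt3, the receptor of lymphoid-primed progenitors, gave 0.18 ± 0.11. No gene of this list passed the limma threshold after adjustment over the array. The list shares Kitl with the stromal, Tek with the endothelial, and Itga2b with the megakaryocyte markers.

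Markers of some other marrow cells had larger changes; each difference between these lists and the members was not tested. The 10 stromal reticular genes all gave lower values, at a median of -0.54, and their summed intensity was 7582 to 9517 in untreated and 5516 to 6713 in treated mice. So did the 10 endothelial genes, at a median of -0.34, with sums of 1045 to 1248 in untreated and 826 to 874 in treated mice. Both sums separated the groups, and no marker of either list was near the floor. Endothelium also expresses Cd34, Procr, Fgd5, Esam and Tek, whose changes were -0.00, -0.07, -0.20, -0.32 and -0.15, and its part in those values was not tested. Among the 9 measured B lineage genes 8 were lower (median -0.32), and their sums of 5422 to 7165 in untreated and 4213 to 5498 in treated mice overlapped. Sox4, Myb and Cd27, which early B cells also express, had changes between 0.06 and 0.08 at their brightest probe sets. The part of B cells in those values was not tested. The 9 genes of T and natural killer cells had a median of -0.12, with 3 higher and 6 lower and sums of 4616 to 5060.0 and 4471 to 5458.

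Whole marrow markers, with 6 of 7 measured, had a median of 0.02 and sums of 43561 to 47847 in untreated and 46142 to 47585 in treated mice. The leukocyte genes among them were bright on every array, whereas the probe set paired with Hba-a1 alone was dim, between 4.94 and 16.95. Of 9 genes of dividing cells 5 were higher, with a median of 0.02, and all changes lay between -0.06 and 0.12. The 6 skeletal muscle genes had a median of -0.00, with Myh1 at 355 in untreated mouse 3 against 8.30 to 24.95 in the other mice.

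**Figure D4:**
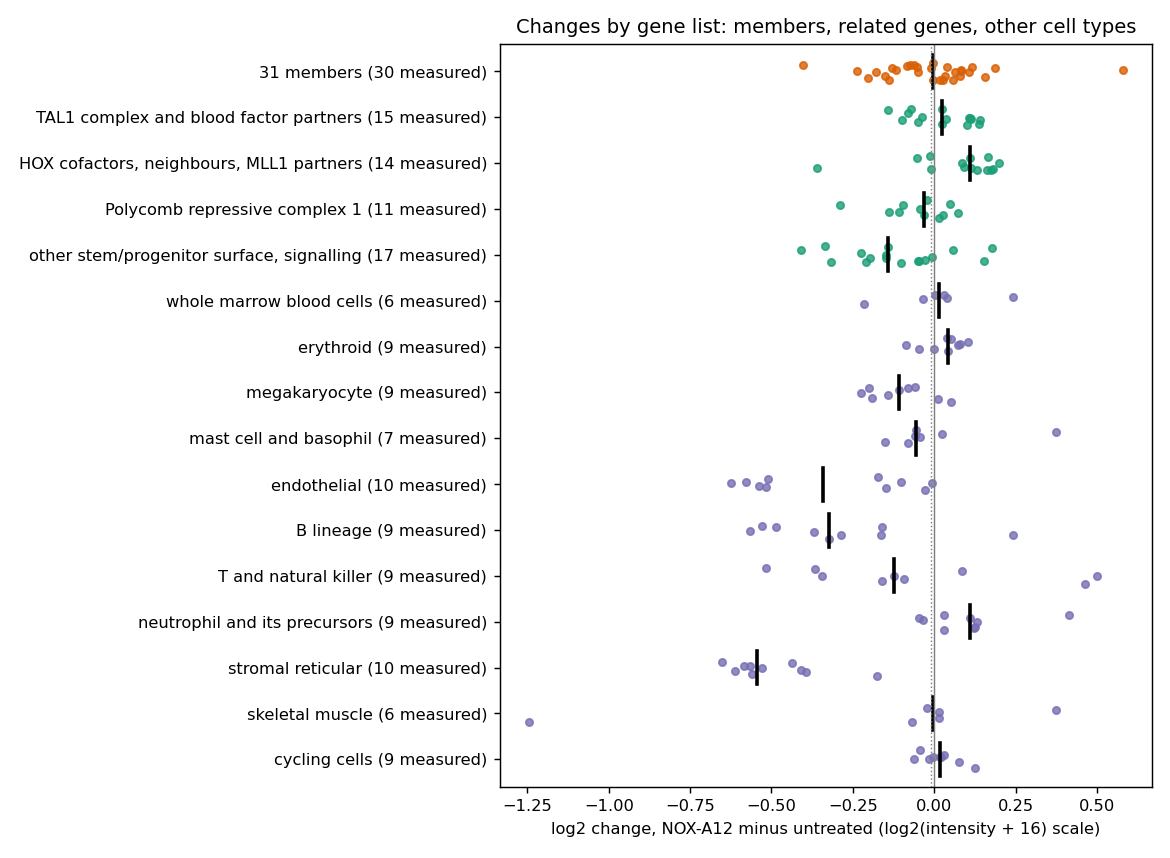
Each point is the log2 change of 1 gene at its brightest probe set: the members (orange), lists of related genes (green) and markers of other cells (purple), with black bars at list medians and a dotted line at the median of all genes. The members centre on 0.00, while stromal reticular (-0.54), endothelial (-0.34) and B lineage (-0.32) genes lie to the left.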

How the data were processed

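Probe-set intensity values, 1 table for the series, were analysed as deposited by the authors. Per the labels' protocols, biotin-labelled cRNA of each mouse was hybridised to a Mouse Genome 430 2.0 array; how they were summarised and normalized is not stated there. Values were linear, from 0.66 to 16790, and array medians differed by 0.0262 on the log2 scale, under the limit of 0.1, so no further normalization was applied. The labels number separate mice. The array annotation gave 34945 probe sets 1 gene symbol, 932 several and 9160 none; only the first kind were named.

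Each probe set was fitted as log2(intensity + 16) in R 4.3.3 with limma version 3.58.1 (two-sided moderated test, treated against untreated, without covariates), and p-values were adjusted by Benjamini-Hochberg over the 45037 probe sets. Intervals use the moderated 7.24 degrees of freedom. The script was tested on simulated data. The number of arrays limits the precision. Replicate numbers name different mice, so no block was fitted in the main analysis.

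Members and gene lists were chosen with earlier results of these data known, and lists are described by counts and medians only. Each mouse's values are given for members whose groups do not overlap or whose unadjusted p is under 0.05, for Kit, Cd34, Slamf1, Procr, Gata2, Hoxa9 and Meis1, and, chosen after their values were seen, for Cd48, Fgd5, Mecom, Tal1 and Myb. Of each related list the 2 genes with the smallest p are named, and Esam, Flt3 and Hdc were added after their values were seen. Alternatives were other offsets, normalizations, filters, variance models, array weights, probe-set rules, a block on the mouse number and leaving out each mouse.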

Additional observations from a re-analysis of the deposited data

How the results depend on the processing

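Over 15 alternatives, 0 probe sets passed the limma adjusted p threshold in any. These included each analysis without 1 mouse, and a limit of 0.1 that was applied to the main fit only. The lowest limma adjusted p was 0.0631 without untreated mouse 1 and 0.0706 with an offset of 1, both under 0.1. The median over the members stayed between -0.04 and 0.02 without 1 mouse. It moved beyond the spread between mice only with the second brightest probe set of the 18 genes that had several, to 0.09. The other members kept their only probe set there. Of 502 changes of single members under the alternatives, 49 had another sign, and 9 of the 30 members kept their sign throughout. Some of the 502 could not differ from the main value. These were changes with the block on the mouse number, and those under probe-set rules for members with 1 probe set. Of the 9 members, Cd48, Fgd5, Spink2, Tal1 and Gfi1b had only 1 probe set. Without untreated mouse 3, 7 members had another sign. Spink2 ranged from 0.35 to 0.72 and Gfi1b from -0.53 to -0.28 without 1 mouse, and Spink2 from 0.41 to 0.66 under other offsets. The cause of these movements was not tested. A replicate block on the mouse number cannot move any change, because each number has 1 mouse in each group. The member median of 0.00, Spink2 at 0.58 and Gfi1b at -0.40 were therefore the same by design. Only the p-values could differ. With the block the unadjusted limma p was 0.00392 for Spink2 and 0.0490 for Gfi1b, and 0 probe sets passed after adjustment. Deviations of equally numbered mice from their group means correlated at -0.09, 0.053 and 0.029. These values showed no pairing by number, but with so few mice they cannot exclude a weak one. Signal near the floor limits Hoxa7 and Hoxb5.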
